A study of Homo sapiens with 6 samples.

Results

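Open chromatin at 10 genes of the BCL2 family was examined in RH30 cells with and without MyoD. The genes were the anti-apoptotic BCL2, BCL2L1 (BCL-XL) and MCL1, the effectors BAX and BAK1, and the BH3-only genes BCL2L11 (BIM), BBC3 (PUMA), PMAIP1 (NOXA), BID and BMF. Peaks of the 6 libraries that overlapped or adjoined were merged into 105569 regions, and a region was given to a gene when the summit of its most enriched peak lay in the gene body or within 50 kb of it (GENCODE, hg38). This gave 141 regions, of which 84 were called in all 6 libraries and could be tested. The choice of genes used no value of these regions as a criterion, but it was made with earlier results of these data known. No region fell to more than 1 of the 10 genes, but only 83 of the 141 had the 5′ end of their own gene as the nearest protein-coding 5′ end, so a region is named here by its position and not as an element of that gene.

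RH30 is an established line of fusion-positive (alveolar) rhabdomyosarcoma, a tumor of the skeletal muscle lineage. In the vector group, 3 libraries came from cells transduced with Cas9 and a non-targeting scramble sgRNA. In the MyoD-deleted group, 3 libraries came from cells transduced with Cas9 and sgRNAs against MyoD, a transcription factor that drives muscle differentiation. Both groups therefore carried Cas9 and a guide, and whether the libraries came from single clones or from antibiotic-selected populations is not given in the sources used here. The study names its RH30 cells both with and without the IκBα super repressor, an inhibitor of NF-κB, and whether these libraries came from cells that carried it cannot be told here. The labels call the samples of a group biological replicates. No RNA or protein was measured in these libraries.

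BCL2-family proteins set the threshold for mitochondrial apoptosis. BAX and BAK1 open the outer mitochondrial membrane, BCL2, BCL-XL and MCL1 restrain them, and BH3-only proteins such as BIM, PUMA, NOXA, BID and BMF relay stress signals by binding to either side. MyoD binds E boxes, short sites of which CAGCTG is a common form in muscle cells, and sites of this kind lie in both promoters and distant enhancers.

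The 4 regions with the largest decrease in height and the 4 with the largest increase, among those that passed the test, are shown first as sequence, so that the motifs near their summits can be read beside the values. Each line gives 201 bases around the summit, 100 on each side, on the plus strand of hg38 (GRCh38). Capitals mark the motifs searched, which are the E box CAGCTG, the E box form CAGGTG (on the other strand it reads CACCTG), the AP-1 site in its forms TGACTCA and, on the other strand, TGAGTCA, the TEAD site GGAATG (on the other strand it reads CATTCC) and the forkhead site GTAAACA (on the other strand it reads TGTTTAC). The first 4 regions were lower in MyoD-deleted libraries and the last 4 were higher, and distances are from the 5′ end of the gene.
BMF, 15.4 kb downstream of the 5′ end, chr15:40093404-40093604: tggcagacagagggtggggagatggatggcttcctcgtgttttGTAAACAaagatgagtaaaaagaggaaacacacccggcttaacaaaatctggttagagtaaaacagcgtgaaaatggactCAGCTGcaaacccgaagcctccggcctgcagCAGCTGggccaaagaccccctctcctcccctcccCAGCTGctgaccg
BID, 49.8 kb downstream, chr22:17724887-17725087: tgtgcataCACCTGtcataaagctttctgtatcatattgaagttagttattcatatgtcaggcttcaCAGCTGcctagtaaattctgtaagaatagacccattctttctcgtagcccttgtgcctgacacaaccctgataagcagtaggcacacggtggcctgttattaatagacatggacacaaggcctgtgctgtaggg
BCL2L1, 29.5 kb downstream, chr20:31694392-31694592: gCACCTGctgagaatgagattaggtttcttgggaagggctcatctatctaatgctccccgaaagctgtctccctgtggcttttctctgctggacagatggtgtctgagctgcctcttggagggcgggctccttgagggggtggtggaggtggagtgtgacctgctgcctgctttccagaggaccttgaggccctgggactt
BCL2L1, 15.4 kb downstream, chr20:31708449-31708649: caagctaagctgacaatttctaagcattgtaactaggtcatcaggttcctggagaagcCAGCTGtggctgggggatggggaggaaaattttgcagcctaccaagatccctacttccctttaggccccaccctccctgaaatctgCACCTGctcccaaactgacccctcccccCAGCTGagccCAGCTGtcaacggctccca
BAK1, 33.6 kb upstream, chr6:33613785-33613985: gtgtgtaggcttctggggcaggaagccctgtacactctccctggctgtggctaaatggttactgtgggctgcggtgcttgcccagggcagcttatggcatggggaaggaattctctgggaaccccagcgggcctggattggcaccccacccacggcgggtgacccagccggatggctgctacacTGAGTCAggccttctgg
MCL1, 41.6 kb downstream, chr1:150538056-150538256: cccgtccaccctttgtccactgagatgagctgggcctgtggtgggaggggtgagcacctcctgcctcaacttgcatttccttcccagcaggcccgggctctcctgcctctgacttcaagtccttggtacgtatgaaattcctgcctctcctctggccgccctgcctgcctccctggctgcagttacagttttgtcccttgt
PMAIP1, 17.7 kb upstream, chr18:59882213-59882413: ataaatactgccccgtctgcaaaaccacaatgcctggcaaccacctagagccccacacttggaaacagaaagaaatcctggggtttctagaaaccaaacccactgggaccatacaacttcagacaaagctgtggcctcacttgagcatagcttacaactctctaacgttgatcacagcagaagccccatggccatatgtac
BID, 7.1 kb upstream, chr22:17781747-17781947: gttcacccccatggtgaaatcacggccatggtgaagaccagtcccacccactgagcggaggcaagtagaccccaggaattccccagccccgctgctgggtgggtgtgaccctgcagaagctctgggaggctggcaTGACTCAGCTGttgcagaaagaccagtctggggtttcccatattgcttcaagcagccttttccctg
CAGCTG occurs 3 times in the BMF window and 3 times in the BCL2L1 window at 15.4 kb, and once each in the BID window at 49.8 kb and in the BID window at 7.1 kb. In the last of these it shares bases with an AP-1 site. The BCL2L1 window at 29.5 kb has no CAGCTG and holds the other E box form once. The BAK1 window holds an AP-1 site, and the MCL1 and PMAIP1 windows hold none of the searched sites.

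ATAC-seq marks accessible DNA by the insertion of adapters with the Tn5 transposase. The authors deposited a list of peaks per library, each with a fold enrichment over local background and a −log10 p, and no read counts. Together these values returned the number of fragments piled up at every summit. Summit height below is log2 of this pileup over the smallest background of the library, centred so that 0 is the median region called in all 6 libraries. Rank is the position of a region's fold enrichment among the tested regions of its library. Both were compared with limma, with Benjamini-Hochberg adjustment over all 47885 regions called in all 6 libraries, and changes are MyoD-deleted minus vector. Libraries held 63140 to 80608 peaks, and their smallest background, which follows depth, was 2.22 to 3.41 fragments. The 3 vector libraries spread more widely in it (2.22, 2.74 and 3.41) than the 3 MyoD-deleted libraries (2.27, 2.28 and 2.35).

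The targeted gene and the cell identity were checked first. The region at the 5′ end of MYOD1 had heights of 2.75, 2.84 and 2.94 in vector libraries and 2.14, 2.50 and 2.43 in MyoD-deleted libraries. The change was −0.49 (adjusted p = 0.0021), but this region may include DNA that the guides edit. All 8 muscle marker genes examined had a region at their 5′ end in all 6 libraries, but several of these regions were lower in MyoD-deleted libraries. Besides MYOD1, height was lower at MYOG (change −0.78, adjusted p = 0.000713), DES (−0.53, adjusted p = 0.00598), CHRND (−0.47, adjusted p = 0.00188) and MYMK (−0.45, adjusted p = 0.0336), while MYF5, CHRNA1 and CDH15 did not pass the test. Without centring, MYOG was still lower (adjusted p = 0.00372), MYOD1, DES, CHRND and MYMK did not pass (adjusted p = 0.0825 to 0.209), and CHRNA1 was higher (change 0.51, adjusted p = 0.012). By rank the adjusted p was 0.405 or more at all 8 genes. Of 8 genes of blood, epithelium, endothelium, liver and glia, 5 had none in any library. The other three were GFAP, with a region in 0 vector and 3 MyoD-deleted libraries, EPCAM (2 and 3) and KRT5 (1 and 3). The part of these 8 genes' cell types in the results was not tested.

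By summit height, 9 of the 84 tested BCL2-family regions were higher in MyoD-deleted libraries (10.7%) and 12 were lower (14.3%). Over all tested regions 11.4% were higher and 12.8% lower, so the family's shares lay near the background of the genome. In each of these 21 regions the 3 MyoD-deleted libraries did not overlap the 3 vector libraries. The test picked these regions by the same heights, so their separation adds no support. The share of all tested regions without overlap is not given here. In these cell populations a change in the share of cells with open DNA and a change within each cell cannot be told apart. The median height change was 0.03 over the family's regions and 0.04 over all regions, and the single changes ran from −1.61 at BMF to 1.46 upstream of BAK1. By rank, 3 regions were higher (3.57%, against 4.12% of all tested regions) and 5 were lower (5.95%, against 4.67%). Both measures called 7 regions in the same direction, height alone called 14 and rank alone called 1.

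The scale and single libraries moved these counts. Without centring, the median region was itself higher in MyoD-deleted libraries, by 0.22 in the family and 0.23 over all regions. On that scale 21 family regions were higher (25.0%, against 24.7% of all) and 8 lower (9.52%, against 8.03%). The number ranked higher was 6 without vector replicate 1 and 1 without vector replicate 2 or MyoD-deleted replicate 2. The number ranked lower was 0 without vector replicate 2 or 3, 1 without MyoD-deleted replicate 2, and 3 without MyoD-deleted replicate 1 or 3. No omission of a library moved either height count by more than 1.5 times. The shares of all regions with a library left out are not given, so nothing particular to the family is read from these counts.

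**Figure D1:**
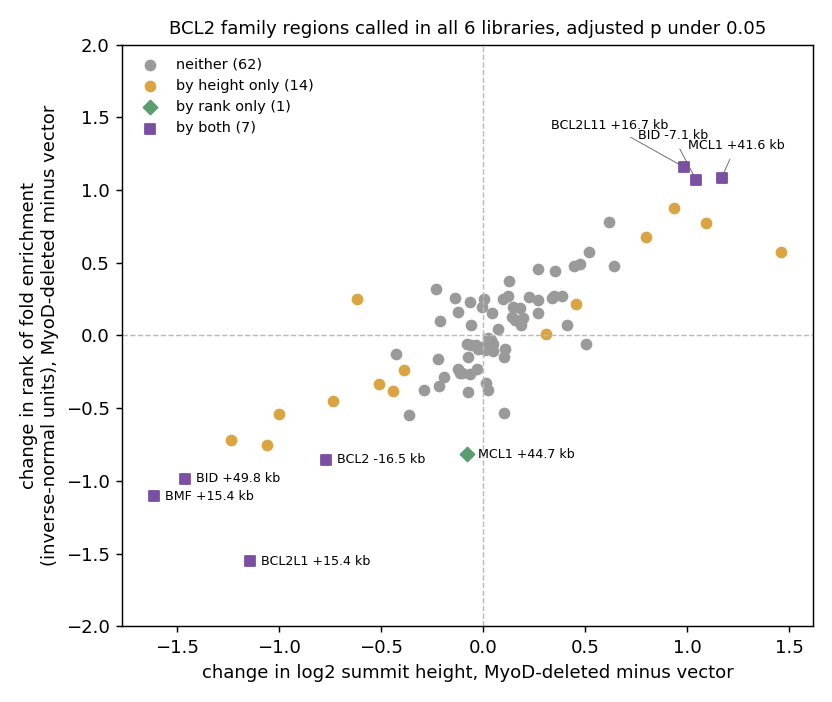
Change in log2 summit height (x axis) and change in the inverse-normal rank of fold enrichment (y axis), MyoD-deleted minus vector, for the 84 regions called in all 6 libraries. Colours give which measure had an adjusted p under 0.05. The 7 regions called by both measures lie toward both ends of the cloud, together with regions called by height alone, such as BAK1 −33.6 kb at 1.46. MCL1 +44.7 kb stands below the cloud with a height change of −0.08.

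Few whole peaks were gained or lost at these genes. A region was counted as gained when called in all 3 MyoD-deleted and no vector library, and as lost in the reverse case. Of the 141 regions 3 were gained (2.13%, against 4.56% of all 105569 regions) and 3 were lost (2.13%, against 1.78%), and 51 others were called in some libraries of either or both groups. The number gained was 6 without vector replicate 1 and 5 without vector replicate 3 or MyoD-deleted replicate 1, and the number lost was 5 without MyoD-deleted replicate 3. With 2 libraries in a group the criterion is also easier to meet, and the shares of all regions gained or lost there are not given.

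By rank and by centred height, no region at the 5′ end of a family gene passed the test on all 6 libraries. A region within 1 kb of the GENCODE 5′ end was called in all 6 libraries at 8 of the 10 genes, and none of the 8 passed the test by height (smallest adjusted p = 0.147, at MCL1) or by rank (smallest adjusted p = 0.236, at BAK1). Of all tested regions within 2 kb of a protein-coding 5′ end, 7.43% were called by height. Nothing particular to the family is read from 0 of 8. At an unadjusted p under 0.05 limma also called 0 of the 8 by either measure. The share of all regions at that unadjusted threshold is not given, so such counts, here and below, have no background beside them. The height changes of the 8 lay between −0.12 and 0.27. Their 95% intervals together spanned −0.37 to 0.54, so a change of 1 log2 unit lay outside each interval. BCL2L1 was the highest in every library, and BID had the lowest mean in both groups. Neighbours in the order below BCL2L1, such as BID and BCL2, BCL2 and BAK1, BAX and BMF, or MCL1 and PMAIP1, overlapped in their library values.

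Among the anti-apoptotic genes, BCL2L1 had the highest 5′ region of the family, with heights of 3.06, 3.22 and 3.33 in vector libraries and 3.33, 3.19 and 3.32 in MyoD-deleted libraries (change 0.07, 95% interval −0.12 to 0.27). MCL1, which encodes a short-lived survival protein, had 1.77, 1.89 and 2.22 against 2.10, 2.09 and 2.50. Its groups overlapped, and its change of 0.27 (interval −0.00229 to 0.54, adjusted p = 0.147) was 0.46 without centring (adjusted p = 0.0136) and 0.40 without vector replicate 3 (adjusted p = 0.0368). BCL2 had 0.68, 0.60 and 1.11 against 0.84, 0.67 and 0.71, and its change of −0.06 (adjusted p = 0.825) became 0.10 without vector replicate 3, the highest of the 6 libraries, and 0.14 without centring.

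For the effectors, the heights at BAX were 1.55, 1.34 and 1.78 in vector libraries and 1.65, 1.69 and 1.78 in MyoD-deleted libraries. By fold enrichment the BAX region stood between percentiles 85.1 and 93.3 of its library. At BAK1 they were 0.81, 0.81 and 0.87 against 0.83, 1.01 and 0.69. Both pairs of groups overlapped, with changes of 0.15 at BAX (adjusted p = 0.416) and 0.01 at BAK1 (adjusted p = 0.956). The BAK1 value was −0.07 without MyoD-deleted replicate 2.

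Of the BH3-only genes, PMAIP1 had 2.12, 2.27 and 2.31 in vector libraries and 2.26, 2.13 and 2.39 in MyoD-deleted libraries, a change of 0.02 (adjusted p = 0.898) that was −0.03 without vector replicate 1 or MyoD-deleted replicate 3. BMF had 1.68, 1.85 and 2.02 against 1.66, 1.58 and 1.96 (change −0.12, adjusted p = 0.522, and 0.07 without centring). BID, with a summit 0.9 kb inside intron 1, had 0.17, 0.24 and 0.63 against 0.52, 0.72 and 0.36 (change 0.19, adjusted p = 0.432). In these 3 genes the groups overlapped.

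BCL2L11 and BBC3 lacked a region at the annotated 5′ end in most libraries. At BCL2L11 none met the 1 kb rule, and the nearest region, 1.5 kb downstream and over 4 annotated transcript starts, had heights of 1.26, 1.19 and 1.51 in vector libraries and 1.14, 0.97 and 1.19 in MyoD-deleted libraries (change −0.22, interval −0.48 to 0.03, adjusted p = 0.209). At BBC3 the region on the 5′ end was called in 1 vector and 1 MyoD-deleted library. A second BBC3 region, 1.4 kb downstream and over 1 transcript start, was called in all 6, with 0.97, 1.14 and 1.32 against 1.41, 1.2 and 1.63 (change 0.27, adjusted p = 0.15). The groups overlapped at BBC3. At BCL2L11 all 3 MyoD-deleted libraries lay below all 3 vector libraries, although the nearest values of the groups both round to 1.19.

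**Figure D2:**
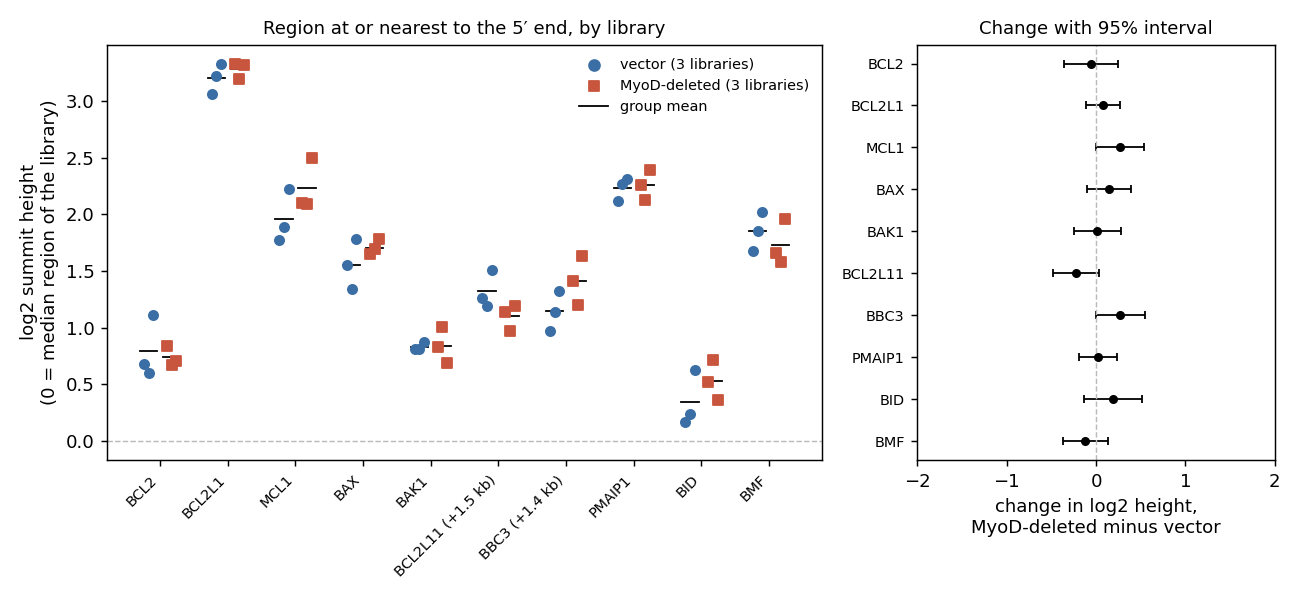
Left, log2 summit height (y axis) of the region at, or for BCL2L11 and BBC3 nearest to, the 5′ end of each gene (x axis), with 1 point per library and black bars for group means. Right, change in height (MyoD-deleted minus vector) with its 95% interval from limma. Points of both groups overlap at each gene except BCL2L11, where the groups separate by less than the rounding of the values, and each interval crosses 0.

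By rank and by centred height, the regions that passed the test lay away from the 5′ ends. All 21 regions called by height lay more than 5 kb from the 5′ end of their gene, among 73 tested at that distance. Of the 22 tested family regions within 2 kb of any protein-coding 5′ end, 0 were called by height (3 at an unadjusted p under 0.05 from limma), and of the 62 others 21 were. Over all tested regions these shares were 7.43% of 10623 and 29.0% of 37262, again with the lower share near 5′ ends. Without centring, limma also called regions near 5′ ends higher, among them MCL1 +0.1 kb (adjusted p = 0.0136). Others were MCL1 +30.7 kb, 368 bp from the ADAMTSL4 5′ end (adjusted p = 0.00699), and BAX −21.0 kb, 124 bp from that of DHDH (adjusted p = 0.0392). The shares of all regions by distance on that scale are not given.

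**Figure D3:**
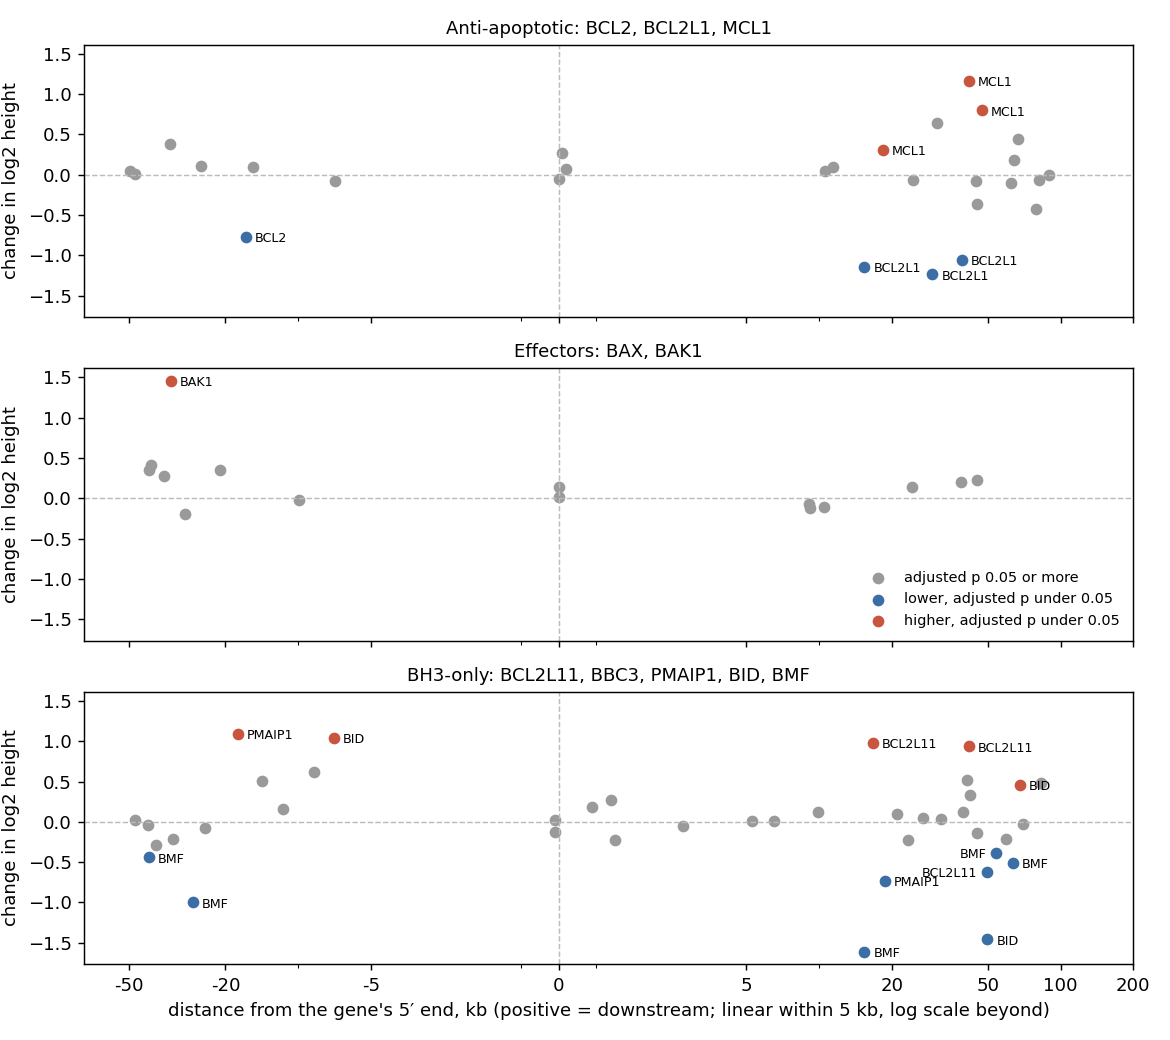
Change in log2 summit height (y axis, MyoD-deleted minus vector) against distance from the 5′ end of the gene in kb (x axis, linear within 5 kb and logarithmic beyond), in panels by role, for the 84 regions called in all 6 libraries. Called regions carry the gene's name. They lie beyond 5 kb on both sides, with 3 BCL2L1 regions low and 3 MCL1 regions high in the top panel and 5 BMF regions low in the bottom panel.

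The anti-apoptotic genes had 45 regions, 28 of them tested, with 3 higher and 4 lower by height (10.7% and 14.3%, against 11.4% and 12.8% of all tested regions). All 3 that were higher lay at MCL1 and all 4 that were lower lay at BCL2L1 and BCL2. BCL2L1 had 22 regions and 12 tested, and its 3 lower regions all lay in intron 2, at 15.4, 29.5 and 39.1 kb from the 5′ end. Its median change was −0.09. The number of BCL2L1 regions called per library was 16, 14 and 15 in vector and 17, 17 and 18 in MyoD-deleted libraries, and the whole lists held 74121, 63140 and 64683 peaks in vector and 73745, 80439 and 80608 in MyoD-deleted libraries. An exact permutation test, two-sided, gave p = 0.1, the smallest that 3 against 3 allows (adjusted p = 0.6 over the 10 genes). At the other nine genes this p was 0.2 or more, and nothing particular to BCL2L1 is read from these counts.

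The first BCL2L1 region (chr20:31708206-31708881), which holds CAGCTG 3 times near its summit, had heights of 0.81, 0.96 and 1.05 in vector libraries and −0.33, −0.65 and 0.39 in MyoD-deleted libraries. All MyoD-deleted libraries were lower, although replicate 3 kept more of the height than the other two. The change was −1.14 (SE 0.20, adjusted p = 0.000448), or 0.453 times the vector value once the log2 is undone. By rank it moved from percentiles 13.3, 30.1 and 28.0 to 0.9, 0.1 and 6.3 (adjusted p = 0.0222), and without vector replicate 2 or 3 or MyoD-deleted replicate 1 or 2 that p was 0.0705 to 0.0778.

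The second BCL2L1 region (chr20:31693666-31694782) was among the taller distant regions, with 1.57, 1.57 and 1.40 in vector libraries. In MyoD-deleted libraries its height was 0.52, 0.08 and 0.23, a change of −1.23 (SE 0.13, adjusted p = 4.98e-06). The local background around it was lower as well, by 0.67 on the log2 scale, and its rank did not pass the test (adjusted p = 0.142, and 0.047 without MyoD-deleted replicate 1). The third (chr20:31684394-31685967) had −0.23, −0.32 and 0.00 against −1.16, −1.52 and −1.04, a change of −1.06 (SE 0.20, adjusted p = 0.000687), with a rank p just above the threshold (adjusted p = 0.0578). Both groups were well apart at these regions.

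A further BCL2L1 region in intron 2, 19.3 kb from the 5′ end (chr20:31704485-31704974), was gained, with heights of −0.86, −0.76 and −0.84 in the MyoD-deleted libraries. It lay between the first and second of the lower regions. No vector library has a value for it, so its change was not measured and cannot be set against theirs. Another gained region, 30.5 kb upstream (chr20:31754074-31754640), lay inside TPX2, a mitotic spindle gene whose 5′ end is nearer, with heights of −1.27, −1.24 and −1.50.

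BCL2, the founding member of the family, had 9 regions and 5 tested. The region 16.5 kb upstream (chr18:63336180-63337077), inside the neighbouring gene KDSR, had heights of −1.02, −0.90 and −0.96 in vector libraries and −1.47, −1.80 and −1.92 in MyoD-deleted libraries. The vector values were tight and the groups did not overlap. The change was −0.77 (SE 0.21, adjusted p = 0.0122) and the pileup was only 18 to 40 fragments. Without MyoD-deleted replicate 3 the height p was 0.0534 (adjusted), and the rank p of 0.0249 (adjusted) was 0.0563 to 0.0825 without vector replicate 2 or 3 or MyoD-deleted replicate 2 or 3. In intron 2 of BCL2, 136.7 kb from the 5′ end (chr18:63183053-63183720), a region with CAGCTG 3 times near its summit was called in the 3 vector libraries at −1.82, −2.0 and −1.58 and in no MyoD-deleted library. A region that is not called has no value in that library, so the size of its change is unknown.

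MCL1 had 14 regions and 11 tested, but only 2 with its own 5′ end as the nearest. Its median change was 0.27, and 6 regions were higher without centring against 3 with it. The region 41.6 kb downstream (chr1:150537485-150538539), between genes and nearest to the 5′ end of ADAMTSL4, an extracellular matrix gene, had heights of −1.05, −1.22 and −1.04 in vector libraries and −0.19, 0.33 and 0.04 in MyoD-deleted libraries. All MyoD-deleted libraries were higher, by 1.17 on average (SE 0.19, adjusted p = 0.000186), or 2.25 times. Its rank p (adjusted p = 0.0166) was 0.0743 without vector replicate 2 and 0.0614 without MyoD-deleted replicate 2.

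The other MCL1 regions called by height, 47.1 and 18.4 kb from the 5′ end, the second within the annotated gene, changed by 0.80 (adjusted p = 0.00323) and 0.31 (adjusted p = 0.0201), also with ADAMTSL4 nearest. At the region 44.7 kb downstream (chr1:150534499-150535292) the 2 measures parted. Its heights were 0.30, 0.28 and 0.24 against 0.25, 0.13 and 0.22 (change −0.08, adjusted p = 0.747, and 0.11 without centring), while its rank fell from percentiles 39.8, 38.1 and 41.9 to 18.9, 11.0 and 13.5 (adjusted p = 0.0225). In MyoD-deleted libraries the local background there was higher by 0.59 (log2). Without vector replicate 2 or 3 or MyoD-deleted replicate 2 or 3 the rank p was 0.0575 to 0.0856.

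The effectors had 33 regions and 15 tested, of which 1 was higher and 0 lower by height, and 0 were called by rank in either direction. The 1 higher region was 6.67% of those tested, against 11.4% over all regions. Over all tested regions 12.8% were lower by height, and 4.12% were higher and 4.67% lower by rank. With 15 regions tested, nothing particular to the effectors is read from the counts of 0. At an unadjusted p under 0.05 limma gave 3 higher and 0 lower by height and 2 higher and 0 lower by rank. Without the share of all regions at that threshold, no direction is read from these counts. At BAX, 10 of 22 regions were tested and none was called by centred height (smallest adjusted p = 0.127, with 1 at an unadjusted p under 0.05). Changes lay between −0.19 and 0.35. Without centring, 2 of the 10 at BAX and 2 of the 5 tested at BAK1 were higher, and 0 at either gene were lower. On that scale 24.7% of all tested regions were higher and 8.03% lower. Only 4 of the 22 had the BAX 5′ end as the nearest in this gene-dense stretch of chromosome 19. A lost region 35.3 kb downstream and a gained region 37.6 kb downstream both lay inside GYS1, which encodes muscle glycogen synthase. The lost region (chr19:48989833-48990220) had 0.68, 0.62 and 0.72 in vector libraries, and the gained region (chr19:48992338-48992638) had 0.65, 0.58 and 0.44 in MyoD-deleted libraries. Both stood on a high local background, 16.2 to 21.0 times the smallest of the library, and ranked in the lowest 1% of all peaks by fold enrichment (percentiles 0.0 to 0.7).

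BAK1 had 11 regions and 5 tested. The region 33.6 kb upstream (chr6:33613469-33614423), with an AP-1 site near the summit, had the largest increase of the family. Heights were −0.07, −1.16 and −0.96 in vector libraries and 0.84, 0.85 and 0.50 in MyoD-deleted libraries, or 77, 25 and 34 fragments against 104, 119 and 96. Vector replicate 1 stood above the other vector libraries but below all MyoD-deleted libraries. The change was 1.46 (SE 0.22, adjusted p = 0.000131), or 2.75 times, and the local background was higher by 1.23. The rank p was 0.0986 (adjusted), and 0.0446 without vector replicate 1. The nearest 5′ end, at 6480 bp, was that of ITPR3, a calcium channel of the endoplasmic reticulum.

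The BH3-only genes had 63 regions and 41 tested, with 5 higher and 8 lower by height (12.2% and 19.5%, against 11.4% and 12.8% of all tested regions) and 2 higher and 2 lower by rank (4.88% each, against 4.12% and 4.67%). BMF had 5 lower and 0 higher, BCL2L11 2 higher and 1 lower, BID 2 higher and 1 lower, and PMAIP1 1 of each. BBC3 had 0 called of its 7 tested regions. At an unadjusted p under 0.05 from limma, 0 were higher at BMF and 1 was higher at BBC3. The share of all regions at that threshold is not given, so no direction is read from these unadjusted counts.

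BMF, known for its part in cell death after loss of attachment, held the region with the largest decrease of the family. It lay in intron 4, 15.4 kb from the 5′ end (chr15:40092582-40093902), and held CAGCTG 3 times near the summit. Its pileup was 115, 102 and 105 fragments in vector libraries and 31, 28 and 43 in MyoD-deleted libraries. Heights were 0.51, 0.87 and 0.67 against −0.90, −1.24 and −0.66, with no overlap. The change was −1.61 (SE 0.18, adjusted p = 6.46e-06), or 0.327 times the vector value once the log2 is undone, and the local background was lower by 0.97. By rank it fell from percentiles 67.8, 74.6 and 65.8 to 25.9, 15.2 and 45.7 (adjusted p = 0.018), with 0.0505 to 0.0714 without vector replicate 2 or 3 or MyoD-deleted replicate 1 or 2.

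A second BMF region, 27.2 kb upstream (chr15:40135741-40137390), had −0.88, −0.76 and −0.46 in vector libraries and −1.95, −1.46 and −1.7 in MyoD-deleted libraries, a change of −1.0 (SE 0.22, adjusted p = 0.00228). Its rank did not pass the test (adjusted p = 0.145). The nearest 5′ end was that of BUB1B, a mitotic checkpoint gene. The other three lower BMF regions changed by −0.51, −0.44 and −0.39 (adjusted p = 0.0239, 0.0486 and 0.0261), and were nearest to SRP14 or BUB1B. None of these 3 passed the test without centring, when BMF had 2 lower regions, and the median change of the 11 tested BMF regions was −0.12.

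BID, which caspase-8 cleaves to link death receptors with mitochondria, had regions moving both ways. The region 7.1 kb upstream (chr22:17781339-17782139) had heights of −0.73, −0.90 and −0.72 in vector libraries and 0.21, 0.48 and 0.10 in MyoD-deleted libraries. The vector libraries lay close together and below all the others. The change was 1.05 (SE 0.17, adjusted p = 0.000222), or 2.06 times, and percentiles moved from 8.5, 9.2 and 8.6 to 38.4, 41.0 and 36.7 (adjusted p = 0.00769). Of the 8 rank calls it was the only one that passed the test with any 1 of the 6 libraries left out. A BID region 10.7 kb upstream (chr22:17785145-17785798) was lost, with −1.05, −1.28 and −1.34 in vector libraries.

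The BID region 49.8 kb downstream (chr22:17724176-17725477) lies inside the neighbouring BCL2L13, another BCL2-family gene. Its heights were 0.76, 1.19 and 1.15 in vector libraries and −0.37, −0.92 and 0.00 in MyoD-deleted libraries, or 137, 128 and 146 fragments against 45, 35 and 68. All MyoD-deleted libraries were lower, with replicate 3 nearest to the vector libraries. The change was −1.46 (SE 0.20, adjusted p = 4.05e-05), or 0.364 times, with a background lower by 0.80. The rank p (adjusted p = 0.0412) was 0.089 to 0.135 without vector replicate 2 or 3 or MyoD-deleted replicate 1 or 2. A region 68.0 kb downstream was higher by 0.46 (adjusted p = 0.0361).

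BCL2L11 encodes BIM, which binds all the anti-apoptotic members. Its region in intron 2, 16.7 kb from the 5′ end (chr2:111135741-111136353), had −0.88, −1.81 and −1.40 in vector libraries and −0.54, −0.37 and −0.23 in MyoD-deleted libraries. The groups did not overlap, although vector replicate 1 came near MyoD-deleted replicate 1. The change was 0.98 (SE 0.23, adjusted p = 0.00394), or 1.98 times, from 16 to 44 fragments to 40 to 58. The rank p (adjusted p = 0.0272) was 0.0637 to 0.101 without vector replicate 2 or 3 or MyoD-deleted replicate 2 or 3.

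Further into BCL2L11, a region in intron 3 at 41.6 kb (chr2:111160618-111161292) had −1.39, −2.0 and −1.34 against −0.69, −0.32 and −0.92, a change of 0.94 (SE 0.23, adjusted p = 0.00647). Its rank p was 0.0545 (adjusted), and 0.0449 without MyoD-deleted replicate 3. At 49.4 kb a region was lower by height (change −0.62, adjusted p = 0.00932) but was not called without centring. All 10 regions of BCL2L11 had its own 5′ end as the nearest, and 8 were tested.

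PMAIP1, a small gene encoding NOXA, which binds MCL1, also had its own 5′ end nearest to all 11 of its regions. The region 17.7 kb upstream (chr18:59881825-59882829) had −1.34, −1.81 and −2.04 in vector libraries and −0.73, −0.69 and −0.50 in MyoD-deleted libraries, a change of 1.09 (SE 0.22, adjusted p = 0.00142), or 2.13 times. The MyoD-deleted libraries were close together and all higher, the background was higher by 0.66, and the rank p was 0.0712 (adjusted), with 0.0267 without vector replicate 1. On the other side, 18.7 kb downstream, a region was lower by 0.74 (change −0.74, adjusted p = 0.000404). BBC3, which encodes PUMA, had no call, with changes from −0.07 to 0.62. The BBC3 region 8.6 kb upstream had the 0.62 (adjusted p = 0.0892), and 2 of its 7 regions were higher without centring.

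**Figure D4:**
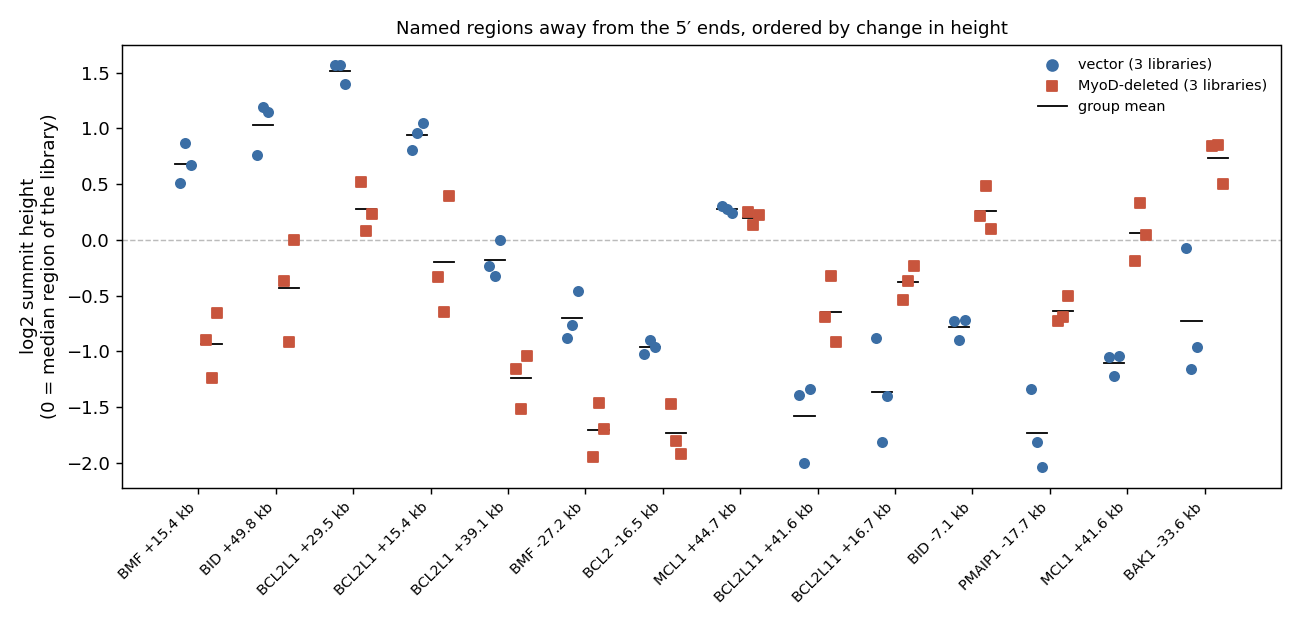
Log2 summit height (y axis) of the 14 regions away from the 5′ ends that were called by rank or had the largest changes called by height alone (x axis, named by gene and distance, ordered by change), with 1 point per library and black bars for group means. The groups separate fully except at MCL1 +44.7 kb, which was called by rank alone. The other regions were picked by a test of these same heights, so their separation adds no support.

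Of the 12 family regions that were lower by height, 9 (75.0%) held the E box CAGCTG in the window of 100 bp on each side of the summit, as did 1 of the 9 that were higher (11.1%). Over all regions these shares were 57.1% of the 6149 lower and 15.9% of the 5438 higher, and 25.1% of all 105569 regions held one. Among all 141 family regions it was 33 (23.4%). CAGGTG or CACCTG lay in 4 of the 12 lower (33.3%, against 29.9% of all lower) and in 0 of the 9 higher (against 7.08% of all higher).

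The AP-1 site showed the reverse order, with 4 of the 9 higher regions (44.4%, against 33.1% of all higher) and 2 of the 12 lower (16.7%, against 14.5%). The TEAD site lay in 2 of the 9 higher (22.2%, against 24.3% of all higher) and 0 of the 12 lower (against 16.6% of all lower). The forkhead site lay in 1 of the 12 lower, at BMF (8.33%, against 2.50% of all lower). These shares describe letters in the window and were not tested, and a match does not show which protein was bound. Nothing particular to the BCL2 family is read from them.

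The 12 other BCL2-family genes had 155 regions, 11 of them shared with the 10 genes above, and of 80 tested 8 were higher and 5 lower by height (10.0% and 6.25%, against 11.4% and 12.8% of all tested regions), with a median change of 0.09. Among their promoter regions, 8 were found in all libraries and 1 passed the test, at BCL2L10, usually classed as anti-apoptotic, where height was lower by 0.68 (change −0.68, adjusted p = 0.00594). The 12 genes downstream or regulating the pathway had 64 tested regions, 4 higher and 8 lower (6.25% and 12.5%), with a median change of 0.07. All 12 had a promoter region in all libraries, and 0 of these were called by limma, with 2 at an unadjusted p under 0.05 (VDAC1, a channel of the outer mitochondrial membrane, and MDM2, a ubiquitin ligase, both named after their values were seen).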

How the data were processed

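ATAC-seq peak lists of 3 vector and 3 MyoD-deleted libraries were used, grouped by their labels. According to the methods, the authors mapped the read pairs to hg38 with Rsubread, kept proper pairs with GenomicAlignments and called peaks with MACS2. One peak list was deposited for each library. The submitters' processing notes name bcl2fastq 2.20 and FastQC. The methods also name the DAC exclusion list for hg38, without stating at which step it was applied. In the deposited lists the score is 10 times the −log10 q without its decimals. The fold enrichment deposited by the authors is the ratio of the summit pileup to the local background within a library, and the deposited −log10 p and −log10 q belong to the same summit. None is normalized between libraries. The authors' differential analysis used read counts and DESeq2, and neither was used here.

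In each library 1 peak on the mitochondrial genome was not used. The pileup and local background were solved from the fold enrichment and the −log10 p together, with a whole-number pileup under a Poisson model, for 100% of peaks. The lists hold no read totals, so depth and counting error are unknown, and the spread between libraries is the only error given. Genes came from GENCODE version 44 and sequence from GRCh38, and coordinates count from 1. Distances are from the 5′ end of the gene to the top summit, and introns are those of the Ensembl canonical transcript. Rank (inverse-normal within a library, over the tested regions) and height were compared with limma 3.58.1 (lmFit, eBayes with a trend, two-sided) in R 4.3.3, without a block, on all 6 libraries. The numbers of regions called per gene were compared by exact permutation of the 20 ways to assign the libraries to the groups. Other steps ran in Python 3.11.15 (matplotlib 3.10.9, pysam 0.24.0, pandas 2.3.3, scipy 1.17.1, numpy 2.4.6), and the fits and the pileup recovery were tested on simulated data.

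Named regions were the one nearest the 5′ end within 1 kb of it, those with an adjusted p under 0.05 by rank, the 6 largest changes called by height only, and all gained or lost regions. Further regions called by height, the regions nearest the 5′ ends of BCL2L11 and BBC3 and the largest change at BBC3 were named after their values were seen. Genes, lists and motifs were chosen with earlier results of these data known. One gene of the pathway list and one of the marker list are not reported here. Alternatives were regions made from summits with 100 bp on each side, a library counted as calling a region only where its peaks cover 50% of it, the same number of peaks in every library, only peaks with a −log10 q of 5 or more, ranks of −log10 p, no centring, regions called in at least 2 libraries per group, the replicate number as a block, no trend, each library left out, flanks of 5 or 100 kb, and only regions nearest to the gene's own 5′ end.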

Additional observations from a re-analysis of the deposited data

How the results depend on the processing

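Of the 480 values of named regions recomputed under the alternatives, 428 kept their direction and their side of the threshold, 30 lost significance, 15 gained it and 7 changed sign. The sign changes were all at regions that no height test called: the 5′ regions of BCL2 (0.135 without centring, and −0.156 without vector replicate 2 to 0.10 without vector replicate 3), BMF (0.0711 without centring), BAK1 (−0.0668 without MyoD-deleted replicate 2 to 0.0967 without replicate 3) and PMAIP1 (−0.0306 without vector replicate 1, −0.0332 without MyoD-deleted replicate 3, 0.0932 without MyoD-deleted replicate 2), and MCL1 +44.7 kb (0.114 without centring). The cause was not tested.

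With each library left out in turn, 1 to 6 regions were ranked higher, 0 to 5 ranked lower, 3 to 6 were gained and 3 to 5 lost. Ranking −log10 p gave 8 regions higher and 8 lower, and MCL1 +44.7 kb was then not called (adjusted p = 0.0802). Requiring peaks to cover 50% of a region gave 1 ranked higher and 5 gained, and a −log10 q of at least 5 gave 7 gained. With equal numbers of peaks 6 regions were lost. Without centring 21 were higher by height. With a flank of 5 kb there are fewer regions. Of 36 tested, 1 was ranked higher, 2 ranked lower, 3 higher and 5 lower by height. Of 51 regions in all, 1 was gained and 1 lost. With 100 kb there are more, and 7 were gained. Among regions nearest to the gene's own 5′ end, 5 were higher by height and 1 was gained. Except for the scale without centring, the shares of all regions under these alternatives are not given. Nothing particular to the family is read from these counts.

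Replicate numbers did not pair the libraries. The deviations of same-numbered libraries correlated between −0.0975 and 0.0414 by rank and between −0.203 and 0.0925 by height. For differently numbered libraries the range was −0.1206 to 0.158 by rank and −0.2321 to 0.2596 by height. The cause of these correlations was not tested. With the replicate block, 2 regions were ranked higher and 4 lower, and 8 were higher and 11 lower by height. The shares of all regions with the block are not given. BCL2L11 +16.7 kb and BID +49.8 kb then missed the rank threshold (adjusted p = 0.0536 and 0.0601).

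Depth limits these results most at low summits such as BCL2 −16.5 kb, where 18 to 40 fragments were piled up. Depth differs between the libraries and is known only through the background, and regions called in some libraries have no value in the others.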
